A study of Mus musculus with 7 samples.

Results

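The nuclear-encoded subunits of the mitochondrial respiratory chain were examined in lumbar (L4-6) dorsal root ganglia, which hold the cell bodies of sensory neurons, of mice with a sciatic nerve injury. Genes were taken by name, as all genes whose symbol follows the patterns for complex I (Ndufa, b, c, s or v and a number), complex II (Sdha to Sdhd), complex III (Uqcr), complex IV (Cox4 to Cox8) and complex V (Atp5). Of 97 names so matched, 11 with the pseudogene ending -ps were dropped. The remaining 86 entries, among 54309 genes in the table, were 37 of complex I, 4 of complex II, 8 of complex III, 19 of complex IV and 18 of complex V. One symbol, Atp5o, occurred in 2 entries, so there were 85 distinct names. The name rule used no measured value, but the members were chosen with earlier results of these data known.

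Male C57bl/6 mice aged 6 to 8 weeks were injured at ZT20 (4 samples) or at ZT8 (3 samples), where ZT is the Zeitgeber time in hours counted from lights on. Ganglia were taken 72 h later, which puts both surgery and tissue collection at one clock time, and their effects cannot be told apart. All groups were injured, and no uninjured sample was analysed here. The ganglia were dissociated with enzymes and passed over an albumin gradient that enriches neurons, and low-input libraries were made from total RNA. The labels do not say whether samples came from separate animals or pools, so p-values measure only the spread between these samples, which may be technical.

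The respiratory chain passes electrons from NADH through complex I, or from succinate through complex II, to ubiquinone, then through complex III and cytochrome c to oxygen at complex IV. Complexes I, III and IV pump protons, and complex V, the ATP synthase, uses the proton gradient to make ATP. Complex II is built from nuclear genes only, whereas the other complexes combine a few subunits made inside the mitochondrion with many imported ones. Sensory neurons have very long axons, and their ion pumping and axonal transport depend on ATP.

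Promoters of respiratory chain genes are known for the binding motif of NRF-1, a transcription factor of nuclear respiratory genes. Its letters, GCGC, then any base and a T, then GCGC again, were searched on both strands and were present in 18 of 74 promoters that RefSeq (build GRCm38.p6) lists for 69 of the 85 names, or 24.3%. Among all 32851 promoters of the same length, 4.60% held them. The ETS motif CCGGAAG, bound by factors such as GABPA, was present in 23.0% of the subunit promoters against 8.86% of all, and the clock E-box CACGTG in 9.46% against 7.15%. The 3 motifs differ in letters, and promoters could hold more than 1 of them. The NRF-1 letters were found in 1 of 4 matched genes that were higher at ZT20 (Cox6a1) and in 4 of 11 matched genes that were lower (Atp5c1, Atp5o, Ndufa11 and Ndufs6). The windows of Ndufa11, Atp5o and Cox6a1 are shown because these genes carry the match and passed the test in opposite directions. Each runs from 250 bases before to 50 bases after the start of the gene, with the NRF-1 letters in capitals. The window of Ndufa11 is chr17:56717512-56717811 on the plus strand, that of Atp5o chr16:91931581-91931880 on the minus strand and that of Cox6a1 chr5:115348909-115349208 on the minus strand.
Ndufa11: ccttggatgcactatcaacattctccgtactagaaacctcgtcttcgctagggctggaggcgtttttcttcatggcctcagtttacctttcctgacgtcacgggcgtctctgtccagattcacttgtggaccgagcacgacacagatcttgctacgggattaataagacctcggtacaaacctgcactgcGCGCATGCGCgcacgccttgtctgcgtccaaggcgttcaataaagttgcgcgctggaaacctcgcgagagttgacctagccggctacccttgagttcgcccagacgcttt
Atp5o: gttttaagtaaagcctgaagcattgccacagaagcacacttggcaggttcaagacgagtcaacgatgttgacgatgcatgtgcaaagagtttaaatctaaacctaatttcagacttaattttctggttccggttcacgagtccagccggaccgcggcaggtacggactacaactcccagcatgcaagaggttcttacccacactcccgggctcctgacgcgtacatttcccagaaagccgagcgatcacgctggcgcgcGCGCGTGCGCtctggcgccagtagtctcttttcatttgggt
Cox6a1: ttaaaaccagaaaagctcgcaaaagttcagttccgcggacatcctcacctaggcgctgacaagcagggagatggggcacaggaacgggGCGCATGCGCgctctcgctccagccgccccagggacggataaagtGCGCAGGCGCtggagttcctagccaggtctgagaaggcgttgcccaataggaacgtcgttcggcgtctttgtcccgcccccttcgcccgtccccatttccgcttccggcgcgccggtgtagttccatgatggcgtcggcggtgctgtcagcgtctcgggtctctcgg
In Ndufa11 the match began 60 bases before the start of the gene, and in Cox6a1 the pair of matches began 162 and 117 bases before it. In Atp5o the match began at base 10 of the transcript. A match of letters is a description and shows neither a bound site nor a cause.

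The 7 libraries were not alike apart from their group. The deposited values are TPM, transcript abundances scaled to the same total in each sample, so sequencing depth is unknown. Between 24192 and 25238 genes were above 0 TPM in the ZT20 libraries and between 18297 and 22973 in the ZT8 libraries, with ZT8 replicate 2 lowest. That library also stood apart on the first principal component, which held 44.4% of the variance. Transcripts of the Y-linked genes Uty, Ddx3y and Eif2s3y were at 0 in the libraries labelled ZT20 replicates 3 and 4, although all mice are labelled male. Xist was at 2.21 and 2.30 TPM there, at 0.00467 and 1.08 TPM in ZT20 replicates 1 and 2, and between 0 and 0.00208 TPM at ZT8. Library identifiers were numbers at ZT20 and letters at ZT8, so any batch they stand for cannot be told apart from the group. Counts of calls over the subunits are therefore given with and without the libraries that stand apart.

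Nearly all subunits were abundantly transcribed in every sample. The mean over the 7 samples was at least 1 TPM for 80 of the 86 entries, and 76 of them reached at least 10 TPM in every sample. Ndufb8, an accessory subunit of complex I, had the highest mean, 1972 TPM, followed by the complex IV subunit Cox4i1 at 1759.7 TPM (means over all samples). The 6 entries under the filter were the muscle-type isoform genes Cox6a2 (0.130 to 0.868 TPM) and Cox8b (0 to 0.377 TPM), Cox7b2 (0 to 1.01 TPM), the second Atp5o entry (0 to 1.49 TPM), and Cox6c2 and Cox8c, which were listed at 0 in all samples. The lowest means among the entries tested belonged to Cox6b2 (1.30 TPM) and Cox4i2 (2.61 TPM), isoforms known from testis and lung. Together the 86 entries made up 3.97%, 3.98%, 3.36% and 3.31% of all TPM in ZT20 replicates 1 to 4. They made up 4.04%, 5.04% and 4.14% in the 3 ZT8 replicates. Every ZT8 sample was thus above every ZT20 sample, by a small margin for ZT8 replicate 1.

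Between the times of day, 19 of the 80 subunits tested differed, 5 higher and 14 lower at ZT20. The test was limma on log2(TPM + 1), with Benjamini-Hochberg adjustment over all 14800 genes averaging 1 TPM or more and a threshold of 0.05. Differences are given as ZT20 minus ZT8 on that scale. The share called was 23.8% of the subunits and 16.4% of all genes. At an unadjusted p under 0.05 (limma) were 36 of the 80 subunits and 5122 of all 14800 genes. The directions were distributed differently: 6.25% of subunits were higher against 12.8% of all genes, and 17.5% were lower against 3.61% of all genes. On this scale 0 of the 19 called subunits and 1126 of the 2433 called genes differed by at least 1. Uqcr10, at -0.997, lay just short of that line, and 4 subunits passed it with median-ratio scaling (Atp5l, Cox4i1, Ndufb8 and Uqcr10) and 1 (Uqcr10) after correction for length and GC content. The median log2 difference was -0.13 over the subunits and 0.23 over all genes tested, and 30 subunits had a positive and 50 a negative difference. Values of the groups did not overlap for 9 subunits that were higher (11.2%, against 24.5% of all genes) and 22 that were lower (27.5%, against 8.72%).

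**Figure D1:**
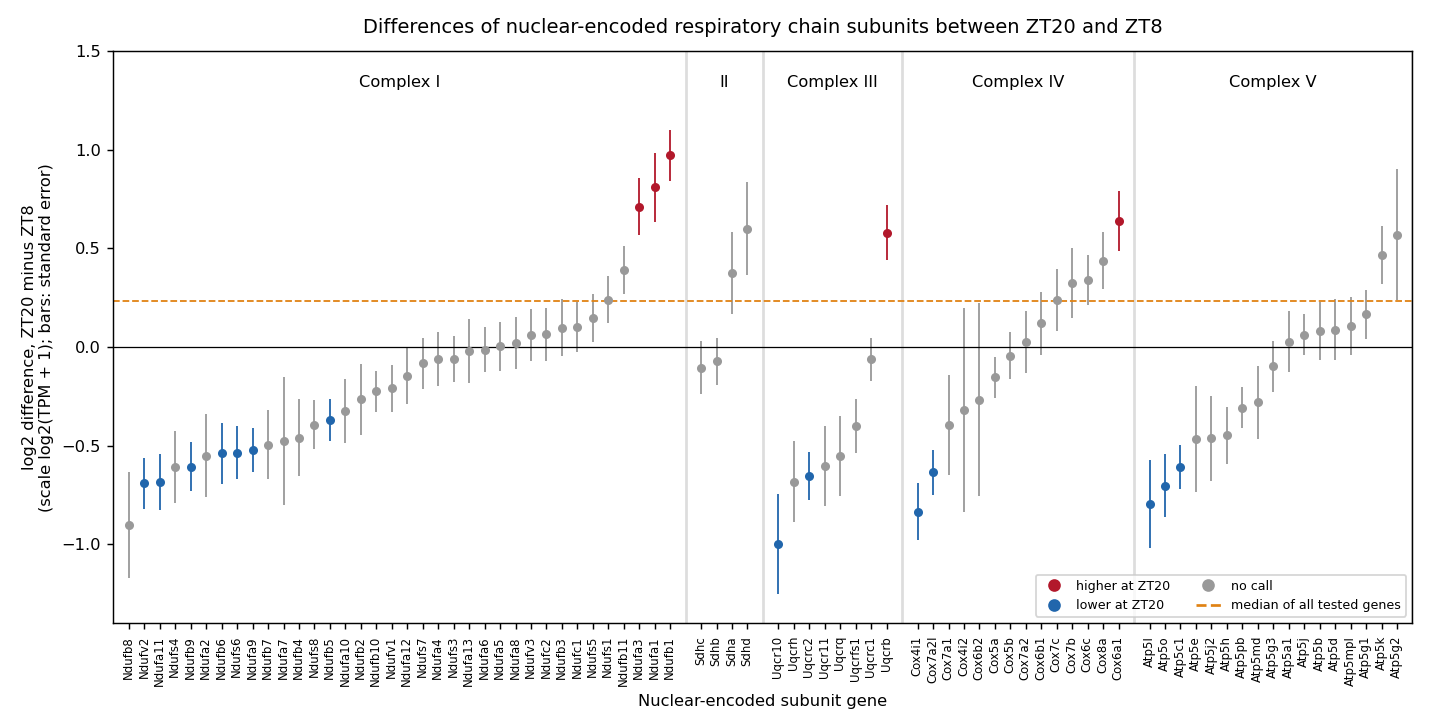
Log2 difference between ZT20 (n = 4) and ZT8 (n = 3) of 79 of the 80 subunits tested, grouped by complex, with standard errors from limma as bars; the dashed line is the median of all genes tested (0.23). The 5 subunits called higher lie in complexes I, III and IV, and the 14 called lower in complexes I, III, IV and V, with none called in complex II.

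These counts depended on how samples were scaled and on which libraries entered. With median-ratio scaling, which moved the median of all genes from 0.23 to 0.019, the subunits' median was -0.36 and 28 were called (35%, against 15.8% of all genes). Of these, 1 was higher and 27 were lower (1.25% and 33.8%, against 7.35% and 8.47% of all genes). Quantile normalization gave 8 higher and 11 lower, and 1023 and 814 among all 14800 genes. The medians were then -0.080 for the subunits and 0.0046 for all genes. After correction for transcript length and GC content 16 were called (20%, against 9.75% of all genes). Of these, 4 were higher and 12 lower (5% and 15%, against 4.31% and 5.44%). The subunits' median was -0.17 and that of all genes -0.020. The subunits' median minus that of all genes was thus -0.15, against -0.36 in the main fit. It was -0.38 with median-ratio scaling and -0.084 with quantile normalization. Their transcripts had a median length of 655 bases, against 1945 for all genes tested. Without the libraries labelled ZT20 replicates 3 and 4, limma called 0 subunits and 0 genes at all, with 19 subunits and 2425 genes at an unadjusted p under 0.05. With 1 library left out, 11 of 80 subunits were called without ZT20 replicate 1, 4 without ZT20 replicate 3 and 10 without ZT20 replicate 4. Of all 14800 genes, 1125, 624 and 819 were called in these fits. Without ZT8 replicate 2, 24 subunits (9 higher, 15 lower) and 3055 genes (2374 higher, 681 lower) were called. By complex, leaving out ZT8 replicate 2 gave 4 higher and 7 lower in complex I, 1 and 0 in complex II, 1 and 3 in complex III, 3 and 2 in complex IV, and 0 and 3 in complex V. All 19 differences kept their sign in each of 19 alternative fits. The groups did not overlap for any of these subunits, so the fits that left out libraries could not have reversed a sign. Another filter leaves the differences themselves unchanged. Under each of 4 scalings 12 were called, Ndufb1 as higher and 11 as lower.

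In complex I, where NADH is oxidised, 3 of 37 subunits were higher at ZT20 (8.11%) and 7 were lower (18.9%). Of all genes, 12.8% were called higher and 3.61% lower. The median log2 difference of the complex was -0.21. The higher ones, Ndufb1, Ndufa1 and Ndufa3, are small accessory subunits of the membrane arm. The level of Ndufb1 in ZT20 replicates 1 to 4 was 82.1, 75.8, 72.7 and 65.1 TPM, against 34.5, 36.4 and 40.4 TPM in the 3 ZT8 replicates. All ZT20 samples were above all ZT8 samples, and the gap was wider than the range within either group. Means of 73.9 ± 7.08 TPM (SD, n = 4) against 37.1 ± 3.01 (SD, n = 3) gave a log2 difference of 0.97 ± 0.13 (SE; adjusted p = 0.00457, limma). Ndufb1 had the lowest mean level of the complex I subunits, 58.1 TPM. Without the libraries labelled ZT20 replicates 3 and 4 its difference was 1.07, with an adjusted p of 0.111 (limma).

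Ndufa1 was at 317, 265, 246 and 219 TPM at ZT20 and at 146, 182 and 121 TPM at ZT8. The groups did not overlap, with ZT20 replicate 1 highest and the library labelled ZT20 replicate 4 nearest to ZT8. Its log2 difference was 0.81 ± 0.17 (SE; adjusted p = 0.0187, limma). Without the libraries labelled ZT20 replicates 3 and 4 it was 0.97, with an adjusted p of 0.157 (limma). The call of Ndufa1 was lost with median-ratio scaling (0.56, adjusted p = 0.0945, limma) and without ZT20 replicate 3 or ZT8 replicate 3. Ndufa1 is X-linked, as are Ndufb11 (0.39) and Cox7b (0.32), whose differences did not pass the test (limma, adjusted p = 0.0595 and 0.224). Ndufa3 was at 424, 384, 306 and 305 TPM at ZT20 and at 229, 213 and 201 TPM at ZT8. Its ZT20 values fell into a higher pair (replicates 1 and 2) and a lower pair (replicates 3 and 4), both above ZT8. The log2 difference was 0.71 ± 0.14 (SE; adjusted p = 0.0158, limma).

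Of the 7 core subunits of complex I encoded in the nucleus, which carry the flavin and iron-sulfur clusters, only Ndufv2 passed the test. Ndufv2, an iron-sulfur subunit of the NADH-binding module, was at 364, 417, 360 and 364 TPM at ZT20 and at 556, 727 and 551 TPM at ZT8. The ZT8 samples were all higher, with replicate 2 highest. Its log2 difference was -0.69 ± 0.13 (SE; adjusted p = 0.0126, limma). The call of Ndufv2 was lost without ZT20 replicate 3. It was also lost with a score of neuronal minus non-neuronal markers as a covariate (adjusted p = 0.0617, limma). Ndufv1, its flavin-bearing partner, averaged 290.4 ± 2.80 TPM (SD, n = 4) at ZT20 against 339 ± 50.7 (SD, n = 3) at ZT8, and the groups overlapped (-0.21, adjusted p = 0.248, limma). Ndufs1, the largest subunit, had a difference of 0.24 (adjusted p = 0.187, limma), which turned to -0.0080 with median-ratio scaling.

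Among accessory subunits that were lower, Ndufa11, which contacts the membrane arm near complex III in supercomplexes, was at 776, 763, 632 and 643 TPM at ZT20 and at 989, 1351 and 1065 TPM at ZT8. No ZT20 sample reached the lowest ZT8 sample. Its log2 difference was -0.68 ± 0.14 (SE; adjusted p = 0.0169, limma). Without the libraries labelled ZT20 replicates 3 and 4 it was -0.55, with an adjusted p of 0.237 (limma). Ndufb9 was at 351 to 431 TPM at ZT20 and 509.9 to 640 TPM at ZT8, a log2 difference of -0.61 ± 0.12 (SE; adjusted p = 0.0165, limma). Ndufa11 and Ndufb9 each lost the call without ZT20 replicate 3 and without ZT20 replicate 4. Ndufb6 (-0.54), Ndufs6 (-0.54), Ndufa9 (-0.52) and Ndufb5 (-0.37) also passed the test (limma). These 4 fell outside the naming rule and were named after their values were seen. Ndufb6 was called in 4 of 19 alternatives and in 0 of 7 fits with 1 library left out, and Ndufb5 in 6 and 1. Both lost the call after the length and GC correction (limma, adjusted p = 0.0764 and 0.0678). Ndufb8 had the second-largest negative difference of all subunits, -0.90 ± 0.27 (SE), but did not pass the test (adjusted p = 0.0528, limma). It was at 1402, 1788, 1180.0 and 1214 TPM at ZT20 and at 2103, 4171 and 1948 TPM at ZT8, so the groups did not overlap but ZT8 replicate 2 lay far above the other ZT8 samples. Ndufa4, counted here by its name although it is now regarded as a complex IV subunit, averaged 1150 ± 103 TPM (SD, n = 4) against 1208 ± 216 (SD, n = 3), and its ranges overlapped.

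**Figure D2:**
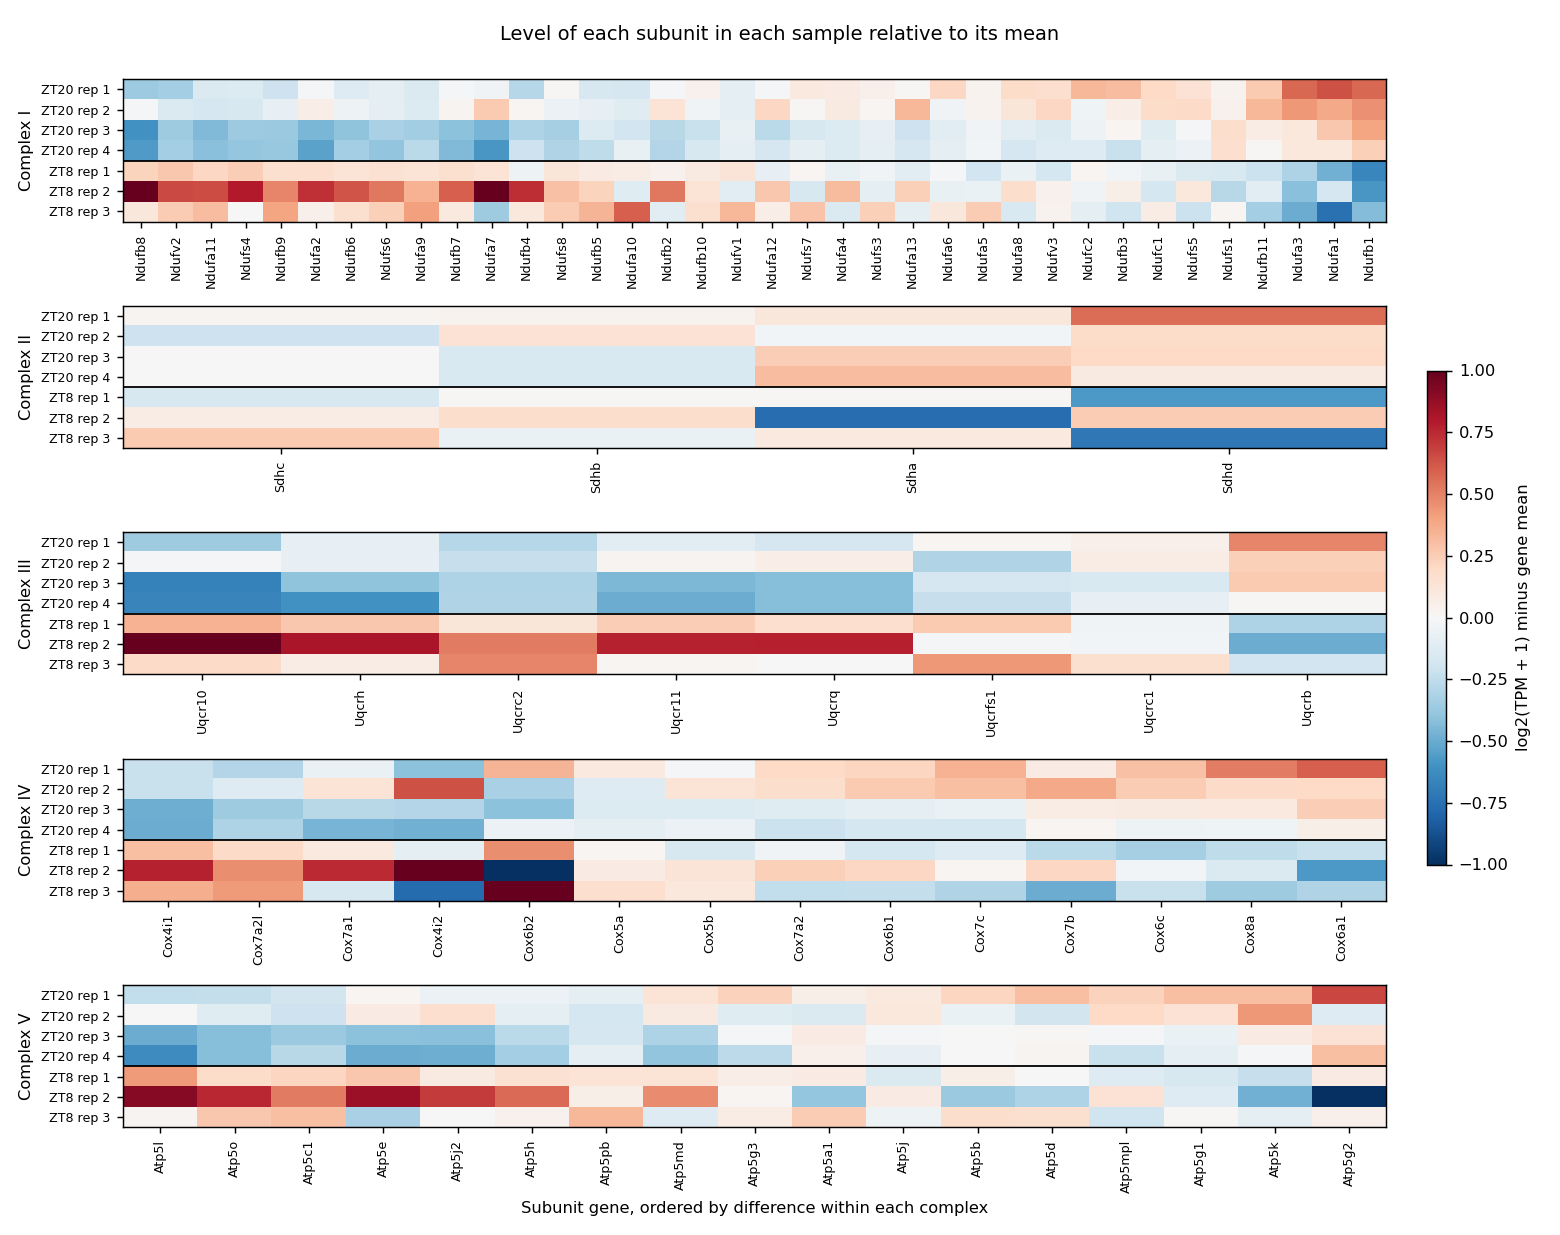
Level of 79 of the 80 subunits tested in each of the 7 samples, as log2(TPM + 1) minus the mean of the gene over all samples, by complex and with the genes ordered by their difference. Among all 80, ZT8 replicate 2 holds the highest value of 33 subunits and ZT20 replicate 1 that of 20. The libraries labelled ZT20 replicates 3 and 4 hold the lowest value of 23 and 22.

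The samples differed within each group as well. ZT8 replicate 2 held the highest value for 33 of the 80 subunits (41.2%, against 20.1% of all genes tested). ZT20 replicate 1 held the highest value for 20 (25%, against 11.3% of all genes tested). The libraries labelled ZT20 replicates 3 and 4 held the lowest value for 23 and 22 subunits, and ZT20 replicate 1 for 0. The matching shares of lowest values over all genes were not computed. The median coefficient of variation over the subunits was 11.6% at ZT20 and 15.2% at ZT8.

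Complex II, succinate dehydrogenase, is also an enzyme of the TCA cycle, and 0 of its 4 subunits passed the limma test (1 at an unadjusted p under 0.05). Sdha, the flavoprotein subunit, was at 251, 227, 274 and 287 TPM at ZT20 and at 233, 136 and 248 TPM at ZT8, where replicate 2 was low. Its difference was 0.38 ± 0.21 (SE; adjusted p = 0.230, limma). Sdhd, a membrane anchor, was at 186, 143, 144 and 134 TPM at ZT20 and at 84.4, 151 and 76.2 TPM at ZT8, so replicate 2 of ZT8 overlapped with ZT20 (0.60, adjusted p = 0.1098, limma). The iron-sulfur subunit Sdhb (-0.07) and the other anchor, Sdhc (-0.10), had small differences with overlapping ranges. The median of the complex was 0.15, and -0.097 with median-ratio scaling, so its direction depended on the scaling.

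Complex III, which passes electrons from ubiquinol to cytochrome c, had the lowest median log2 difference of the complexes, -0.58. Of its 8 subunits 7 were negative, 1 was called higher and 2 were called lower. These calls are 12.5% and 25%, against 12.8% and 3.61% of all genes. Uqcr10, a small subunit, was at 658, 830.2, 527 and 534 TPM at ZT20 and at 1073, 1897 and 961 TPM at ZT8. All ZT8 samples were above all ZT20 samples, and ZT8 replicate 2 was far above the rest. Its log2 difference of -0.997 ± 0.25 (SE; adjusted p = 0.0326, limma) was the largest in size with all 7 libraries. It was -0.76 without the libraries labelled ZT20 replicates 3 and 4 and -0.70 without ZT8 replicate 2, where Ndufb1 was larger (1.07 and 0.96). The call was lost without ZT20 replicate 1, 3 or 4 (limma, adjusted p = 0.0703, 0.0998 and 0.0965). Uqcrc2, a core protein of the matrix side, was at 176, 183, 173 and 173 TPM at ZT20 and at 233, 307 and 301 TPM at ZT8. The ZT20 values lay close together and below every ZT8 value. Its log2 difference was -0.65 ± 0.12 (SE; adjusted p = 0.0129, limma). The call of Uqcrc2 was lost without ZT20 replicate 3 and with the marker score as covariate (adjusted p = 0.0545, limma). Its core partner Uqcrc1 averaged 1114 ± 82.2 TPM (SD, n = 4) against 1164 ± 91.7 (SD, n = 3), with overlapping ranges.

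Uqcrb, another subunit of complex III, went the other way. It was at 279.97, 235, 239 and 202 TPM at ZT20 and at 161, 141 and 175 TPM at ZT8, without overlap. Its log2 difference was 0.58 ± 0.14 (SE; adjusted p = 0.0265, limma). It was no longer called with median-ratio scaling (0.33, adjusted p = 0.154), after the length and GC correction (adjusted p = 0.0665), with a score of neuronal minus non-neuronal markers as a covariate (adjusted p = 0.156), or in 4 of 7 limma fits with 1 library left out, those without ZT20 replicate 1, 2 or 3 or ZT8 replicate 1. The Rieske iron-sulfur protein Uqcrfs1 had a difference of -0.40 (adjusted p = 0.0778, limma) and Uqcrq one of -0.55 (adjusted p = 0.0946, limma), both with overlapping ranges.

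In complex IV, cytochrome c oxidase, 1 of 14 subunits tested was higher and 2 were lower (7.14% and 14.3%, against 12.8% and 3.61% of all genes). The median of the complex was -0.0095, or 0.20 without ZT8 replicate 2. Cox4i1, the largest nuclear subunit, was at 1434, 1433, 1196 and 1186 TPM at ZT20 and at 2060.4, 2849 and 2159 TPM at ZT8. Every ZT8 sample was higher than every ZT20 sample. Means of 1312 ± 140.0 TPM (SD, n = 4) against 2356 ± 429.8 (SD, n = 3) gave a log2 difference of -0.83 ± 0.15 (SE; adjusted p = 0.0101, limma). Cox7a2l is known from work on supercomplexes of complexes III and IV, and whether it has a role in them in these mice was not tested. The level of Cox7a2l was 357, 399.6, 342 and 354 TPM at ZT20 and 501, 605 and 590.1 TPM at ZT8. It was lower in all ZT20 samples, with a log2 difference of -0.63 ± 0.11 (SE; adjusted p = 0.0106, limma). Cox4i1 and Cox7a2l were the 2 lower subunits called with each of the 7 libraries left out in turn, and Ndufb1 and Ndufa3 the 2 higher ones. Ndufa3 lost the call with median-ratio scaling (0.46, adjusted p = 0.0949, limma) and with the marker score as covariate (adjusted p = 0.066), and Cox4i1 with that score (adjusted p = 0.0561, limma).

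Cox6a1, the non-muscle isoform of a regulatory subunit, was at 1012, 770.4, 792 and 697 TPM at ZT20 and at 574, 448 and 544 TPM at ZT8. All ZT20 samples were higher. Its log2 difference was 0.64 ± 0.15 (SE; adjusted p = 0.0259, limma), and 0.39 with an adjusted p of 0.123 after median-ratio scaling. The call of Cox6a1 was also lost without ZT20 replicate 1, ZT20 replicate 3 or ZT8 replicate 3. With the marker score as covariate its adjusted p was 0.155 (limma). Cox5a and Cox5b, which sit near the core on the matrix side, had differences of -0.15 and -0.04, Cox6b1 one of 0.12, and all had overlapping ranges. Cox8a, at 0.44, did not overlap between groups but did not pass the test (adjusted p = 0.0672, limma).

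**Figure D3:**
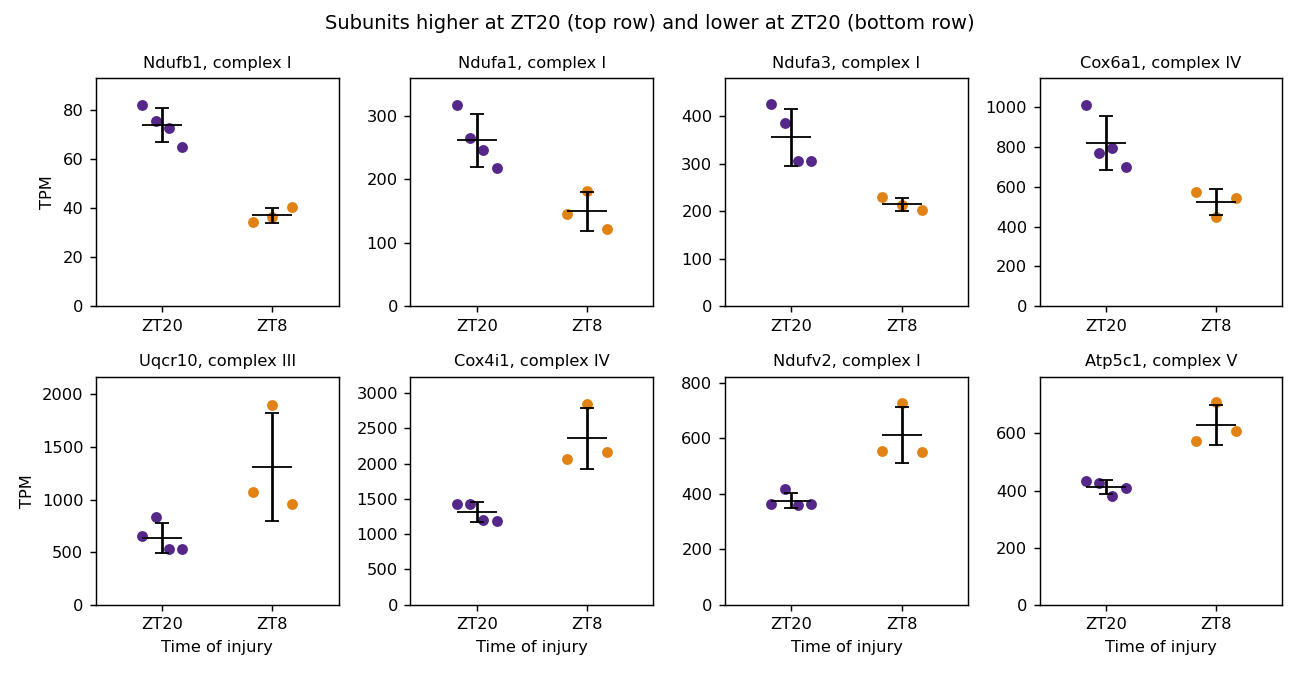
TPM of 4 subunits higher at ZT20 (top) and 4 lower at ZT20 (bottom) in each sample, with the mean and SD of each group (ZT20 n = 4, ZT8 n = 3). The groups do not overlap in any of the 8 plots, and ZT8 replicate 2 is highest in each plot of the bottom row.

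In complex V, 0 of 17 subunits tested were higher by limma (1 at an unadjusted p under 0.05) and 3 were lower (17.6%). Of all genes, 12.8% were called higher and 3.61% lower. The median of the complex was -0.096. Within the catalytic head, where ATP is made, the gamma subunit gene Atp5c1, which forms the rotating shaft, was at 433, 428, 381 and 407 TPM at ZT20 and at 573, 709 and 609 TPM at ZT8. The groups were clearly separate, with a log2 difference of -0.61 ± 0.11 (SE; adjusted p = 0.0120, limma). The call of Atp5c1 was lost without ZT20 replicate 3 and with the marker score as covariate (adjusted p = 0.0590, limma). The genes of the alpha and beta subunits, which make up the ring of the head, did not pass the test. Atp5a1 averaged 436 ± 30.3 TPM (SD, n = 4) against 434 ± 93.8 (SD, n = 3), and Atp5b 1086 ± 95.0 TPM (SD, n = 4) against 1035 ± 194.7 (SD, n = 3). Their small differences (0.03 and 0.08; adjusted p = 0.912 and 0.714, limma) turned negative with median-ratio scaling (-0.22 and -0.17).

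Outside the ring, Atp5o, the subunit that ties the head to the stator, was at 885, 958, 777 and 777 TPM at ZT20 and at 1182, 1758 and 1257 TPM at ZT8. It was lower in all ZT20 samples, with a log2 difference of -0.70 ± 0.16 (SE; adjusted p = 0.0222, limma). Atp5o was called in 4 of 7 limma fits with 1 library left out. It lost the call with the marker score as covariate (adjusted p = 0.133, limma). Atp5l, a small membrane subunit, was at 315, 374, 265 and 242 TPM at ZT20 and at 501, 702 and 382 TPM at ZT8. The groups did not overlap, but ZT20 replicate 2 and ZT8 replicate 3 were close to each other, and the log2 difference was -0.80 ± 0.22 (SE; adjusted p = 0.0438, limma). Atp5l was called in 2 of 7 limma fits with 1 library left out. The call was also lost with quantile normalization (adjusted p = 0.0625, limma) and with the marker score as covariate (adjusted p = 0.295, limma).

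Of the 19 subunits called, 15 overlap another annotated gene, as do 37 of the 80 tested. Examples are Ndufb1 with Cpsf2 and Ndufa3 with Tfpt. How reads were assigned to overlapping genes, paralogs or pseudogenes is not given in the sources used here, so these levels are uncertain in that respect. Ndufa1, Cox6a1, Uqcr10 and Cox7a2l overlap no other gene.

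Several complex IV and V subunits exist as isoform genes, and their shares within a sample do not move when all values of a sample are multiplied by 1 factor. Cox7a2l made up 41.5%, 44.7%, 46.0% and 48.4% of the summed TPM of Cox7a2 and Cox7a2l at ZT20 and 54.0%, 54.0% and 61.5% at ZT8. The muscle-type Cox7a1 made up 2.66% ± 0.218 (SD, n = 4) of Cox7a1 and Cox7a2 at ZT20, against 3.62% ± 0.664 (SD, n = 3). Neither pair overlapped between groups. For both, the two-sided exact permutation test over 35 splits gave p = 0.0286, the smallest it can give, and 0.129 after Benjamini-Hochberg adjustment over 9 shares. Cox7a2 itself, the liver-type isoform, averaged 444 ± 64.1 TPM (SD, n = 4) against 437 ± 73.2 (SD, n = 3).

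Subunit c of the ATP synthase, whose mature protein is the same from each of its 3 genes, came mostly from Atp5g1. Its share was 71.6% ± 1.95 (SD, n = 4) at ZT20, against 67.9% ± 1.25 (SD, n = 3), and that of Atp5g3 was 27.8% ± 1.90 (SD, n = 4) against 31.6% ± 1.22 (SD, n = 3). The groups did not overlap, and the exact permutation p was 0.0571 for each (0.129 adjusted). After correction for length and GC content these differences reversed, from 3.65 to -0.80 percentage points for Atp5g1 and from -3.83 to 0.56 for Atp5g3. Atp5g2 made up 0.616% and 0.443% (exact permutation p = 0.2). The shares of Cox4i2, Cox6a2, Cox6b2 and Cox8b, all minor isoforms, were below 1% in every sample and overlapped between groups. At least 6 of the 9 shares would have had to reach the smallest p for any to pass the adjusted threshold, so its being missed says little about these shares.

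**Figure D4:**
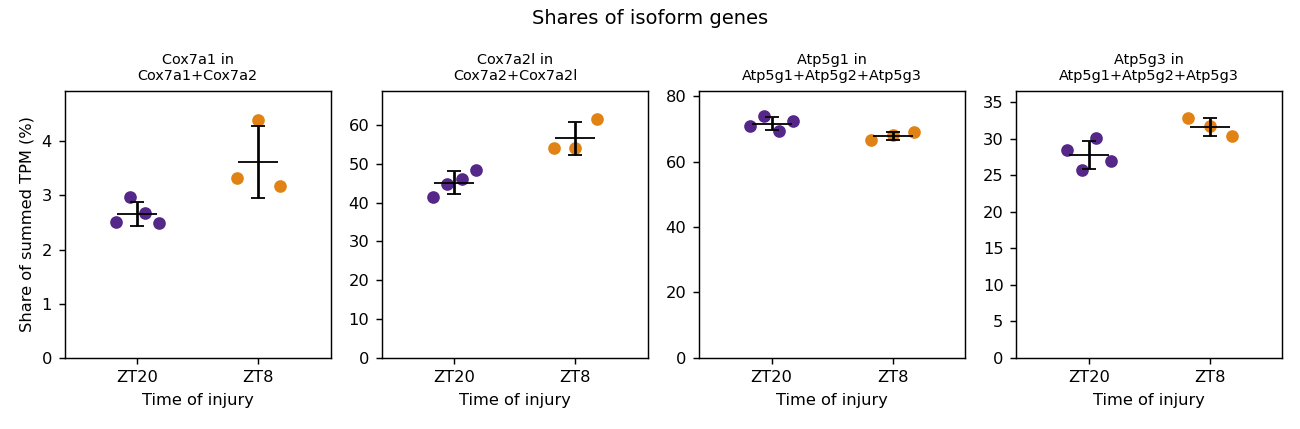
Share of 4 isoform genes in the summed TPM of their set, in each sample with the mean and SD of each group (ZT20 n = 4, ZT8 n = 3). The Cox7a2l share lies between 41.5% and 48.4% at ZT20 and between 54.0% and 61.5% at ZT8.

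Of the 13 subunits encoded by mitochondrial DNA, 4 were higher at ZT20 and 0 lower by limma (8 and 0 at an unadjusted p under 0.05): mt-Co3 (1.42), mt-Co2 (1.23), mt-Nd2 (0.95) and mt-Atp8 (0.92). That is 30.8% higher, against 12.8% of all genes. Of all 14800 genes, 5122 were at an unadjusted p under 0.05 in either direction (limma). With median-ratio scaling 1 of the 13 was higher, or 7.69%, which is near the 7.35% of all genes in that fit. Without ZT8 replicate 2, 8 were higher (61.5%), as were 2374 of all 14800 genes. The summed TPM of the nuclear-encoded subunits was 1.69, 2.32, 1.30 and 1.57 times that of the mitochondrially encoded ones in ZT20 replicates 1 to 4. It was 3.16, 2.64 and 4.83 times in ZT8 replicates 1 to 3, without overlap between the groups.

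**Figure D5:**
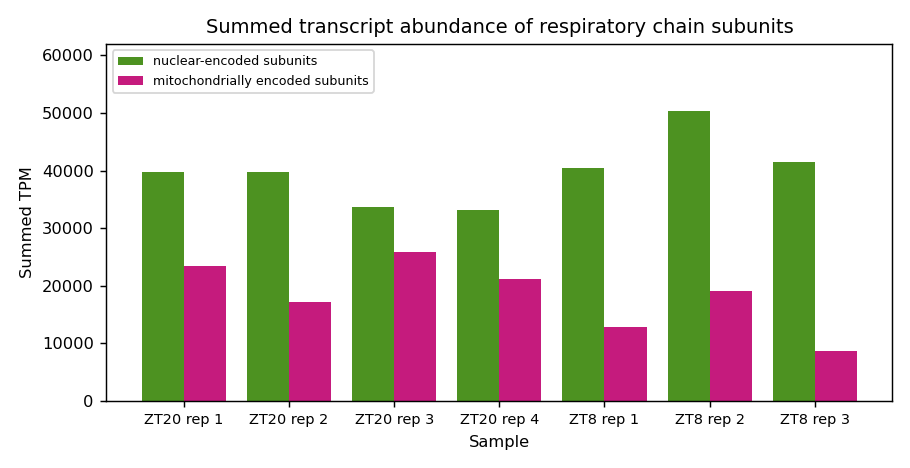
Summed TPM of the 86 nuclear-encoded entries and of the 13 mitochondrially encoded subunits in each sample. The nuclear sum is 1.30 to 2.32 times the mitochondrial sum at ZT20 and 2.64 to 4.83 times at ZT8.

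Among 10 further nuclear subunits and electron carriers, 7 were tested. Cytochrome c (Cycs, -0.58) and the cytochrome c1 subunit of complex III (Cyc1, -0.45) were lower at ZT20, and the ATP synthase factor Dmac2l (1.11) was higher. These are 28.6% lower and 14.3% higher, against 3.61% and 12.8% of all genes. Of 52 assembly factors, 51 were tested, 5 were higher and 3 lower. Their share called, 15.7%, is near the 16.4% of all genes. With median-ratio scaling 2 were higher and 13 lower (3.92% and 25.5%, against 7.35% and 8.47% of all genes). The higher ones were the heme A synthase Cox15 (1.17), the complex I factor Timmdc1 (1.13), the mitochondrial mRNA-binding protein Lrpprc (1.00), the copper chaperone Cox17 (0.89) and Cmc1 (0.80). The lower ones were the complex I factors Ndufaf6 (-0.97) and Ndufaf5 (-0.69) and Tmem70 (-0.54), known from ATP synthase assembly.

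Of 14 regulators of respiratory genes, 3 were higher and 0 lower by limma (5 and 0 at an unadjusted p under 0.05): the nuclear receptor Esrrg (1.78), Gabpa (0.72), a subunit of the factor that binds the ETS motif, and the mitochondrial RNA polymerase Polrmt (0.57). That is 21.4% higher, against 12.8% of all genes. With median-ratio scaling 1 was higher (7.14%, against 7.35% of all genes). Nrf1, the gene of NRF-1, was at 12.8 to 13.9 TPM at ZT20 and at 12.9, 2.28 and 10.3 TPM at ZT8, with ZT8 replicate 2 low (0.83, adjusted p = 0.21, limma). Ppargc1a, a coactivator of mitochondrial biogenesis, had a difference of 0.06. Among 18 genes of the TCA cycle and pyruvate dehydrogenase, 0 were called in either direction by limma (5 higher and 2 lower at an unadjusted p under 0.05). The unadjusted counts of regulators and TCA cycle genes stand beside 5122 of all 14800 genes at that p in either direction.

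Markers of other cells differed between the groups beside these results. Counts of called markers stand beside 12.8% of all genes called higher and 3.61% called lower at ZT20. Counts at an unadjusted p under 0.05 stand beside 5122 of all 14800 genes in either direction (limma). In bulk RNA, fewer cells of a type and less RNA per cell cannot be told apart. Of 6 satellite glia markers, 3 were lower at ZT20, among them Apoe and Fabp7, and the markers' summed level was 7483 to 9148 TPM at ZT20 and 12760.0 to 15466 TPM at ZT8. Most of that sum was Apoe (6261 to 7615 TPM at ZT20 and 10623 to 13557 TPM at ZT8). Kcnj10 (0.21) and Cdh19 (0.38) had positive differences that did not pass the test. Of 10 sensory neuron markers, 3 were higher (Nefh, Scn9a and Scn10a), with sums of 17279 to 22273 TPM and 13404 to 20650 TPM, so neuronal transcripts were abundant in all samples. One of 6 macrophage markers (C1qa) and 1 of 5 plasma and B cell markers (Mzb1) were lower, with sums of 254 to 583 against 248 to 565 TPM and of 174 to 383 against 350.3 to 843 TPM. Of the markers of myelinating Schwann cells (5 tested), fibroblasts (5), endothelium (1 of 4), pericytes (2 of 4), erythroid cells (5) and skeletal muscle (2 of 4), 0 were called by limma, with 1, 1, 0, 1, 0 and 0 at an unadjusted p under 0.05. Erythroid sums ranged from 2369 to 6679 TPM at ZT20 and from 951 to 9534 TPM at ZT8, highest in ZT8 replicate 2. Without that library 4 of the 5 erythroid markers were called higher at ZT20 by limma, as were 2374 of all 14800 genes. With the marker score as a covariate, limma called 8 of 80 subunits, 3 higher and 5 lower. It called 1044 of all 14800 genes in that fit, 917 higher and 127 lower. No marker gene was at 0 in all samples, and the part of other cells in the differences was otherwise not tested.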

How the data were processed

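RNA sequencing values of 7 samples were analysed, grouped by the sample titles. The authors deposited one table of TPM, a unit relative to transcript length and to a fixed total per sample, so depth is unknown. The submitters' processing notes name FastQC 0.11.9, Trim Galore 0.6.6, Salmon 1.6.0, DESeq2 1.34.0 and the build GRCm39, with no role given for each. How transcripts were summed to genes is not given in the sources used here. Values were analysed as log2(TPM + 1), which understates the change of low genes, with limma 3.58.1 (trend option of eBayes; R 4.3.3), two-sided, for genes averaging at least 1 TPM over the 7 samples. The procedure was tested on simulated data. Exact permutation tests used all 35 splits. Tables and figures were made with pandas 2.3.3 and matplotlib 3.10.9 in Python 3.11.15.

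The members, gene lists and alternatives were chosen with earlier results of these data known. Named were every subunit under the filter, the 3 with the highest mean in each complex, a set of core subunits and isoform genes, and subunits past the threshold (at most 10 in a direction). Some genes that the rule or a list includes are not reported here by name. Transcript length and GC content (medians over protein-coding transcripts) and overlapping genes were read from GENCODE M21, where 51484 identifiers were found. That annotation is of another build than the submitters name, so no coordinates are taken from it. The only coordinates given are those of promoter windows in RefSeq's table, on its own build, GRCm38.p6. Alternatives were a pseudocount of 0.1, other filters, median-ratio and quantile scaling, removal of mitochondrially encoded genes, a loess correction (span 0.3) for length and GC content, the replicate block, a marker covariate, array weights and leaving out libraries. All 7 columns of the table were used.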

Additional observations from a re-analysis of the deposited data

Results flagged for a closer look

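Of 49 groups of 4 ZT20 values examined, 5 had 1 sample set apart from the other three by a gap above Dixon's 95% critical value for 4 samples. Chance gives about 1 in 20, or 2.45 here. The gap was 0.926 of the range for Ndufv2, where ZT20 replicate 2 (417 TPM) was above the others (360 to 364 TPM). It was 0.88 for Cox4i2, where replicate 2 was high at 3.91 TPM, and 0.867 for Cox5a, where replicate 1 was high at 1016 TPM. For Atp5a1 it was 0.852, with replicate 2 low at 391 TPM, and for Sdhc 0.8293, with replicate 2 low at 104 TPM. Only Ndufv2 of these passed the test between times of day, and its log2 difference ranged from -0.76 to -0.56 over fits with 1 library left out.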

How the results depend on the processing

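Counts of subunits past the threshold (19, 5 higher and 14 lower) and of all genes (2433, 1899 and 534) moved as follows. Without the filter they were 9, 2 and 7 for subunits and 1178, 978 and 200 for all genes. Array weights gave 34, 9 and 25 and 3899, 2982 and 917. The marker covariate gave 8, 3 and 5 and 1044, 917 and 127. Median-ratio scaling gave 1 higher and 27 lower subunits and 1088 and 1254 genes, and quantile normalization 8 higher subunits and 1023 and 814 genes. The length and GC correction gave 1438 genes, 636 and 802. Without the libraries labelled ZT20 replicates 3 and 4 limma gave 0, 0 and 0 for both (19 subunits and 2425 genes at an unadjusted p under 0.05). With 1 library left out, subunits ranged from 4 to 24 (2 to 9 higher, 2 to 15 lower) and genes from 624 to 3055 (543 to 2374 higher, 81 to 681 lower). The cause was not tested, other than that fewer samples or more genes entered some of these fits.

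The replicate block gave 16 subunits, 5 higher and 11 lower, and 1174 genes, 891 and 283. With the length and GC correction as well, the replicate block gave 11, 3 and 8, and 656 genes, 296 and 360. Deviations of same-numbered samples correlated at r = -0.014, 0.15 and 0.083 for numbers 1 to 3, and only the ZT8 sample of number 2 correlated best with its own number, so the numbers were not taken to pair the samples.

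Median differences by complex moved with median-ratio scaling to -0.46 (I), -0.097 (II), -0.26 (IV) and -0.35 (V). The length and GC correction gave 0.052 (II) and -0.29 (V), and leaving out ZT20 replicates 3 and 4 gave -0.091 (I). With 1 library left out complex II ranged from 0.051 to 0.21 and complex IV from -0.064 to 0.20.

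Directions that reversed belonged to subunits that did not pass the test. With median-ratio scaling these were Atp5a1 (-0.22), Atp5b (-0.17), Atp5g1 (-0.084), Cox6b1 (-0.13), Cox7a2 (-0.23) and Ndufs1 (-0.0080), and with quantile normalization Cox5b (0.046) and Sdhb (0.023). With the length and GC correction they were Atp5a1 (-0.29), Atp5b (-0.10) and Atp5g1 (-0.16), and with the block added -0.27, -0.079 and -0.079. With the marker covariate they were Atp5a1 (-0.28), Atp5b (-0.20), Atp5g2 (-0.052), Cox4i2 (0.78), Cox7a1 (0.018), Ndufa4 (0.14), Sdha (-0.014) and Sdhb (0.048). Array weights reversed Atp5a1 (-0.073) and Atp5b (-0.049), and a pseudocount of 0.1 reversed Cox6b2 (0.18). Without ZT20 replicates 3 and 4 they were Atp5a1 (-0.025), Atp5g3 (0.00019), Cox5b (0.036), Ndufa4 (0.052), Sdhb (0.049) and Uqcrc1 (0.027). With 1 library left out the ranges crossed 0 for Atp5a1 (-0.16 to 0.16), Atp5b (-0.078 to 0.19), Cox4i2 (-0.79 to 0.30), Cox5b (-0.14 to 0.0096), Cox6b2 (-0.87 to 0.18), Cox7a2 (-0.090 to 0.15), Ndufa4 (-0.15 to 0.082) and Uqcrc1 (-0.096 to 0.0017).

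Of the shares, Atp5g1 (-0.80 points) and Atp5g3 (0.56 points) reversed with the length and GC correction, and Cox6b2 as a log2 ratio (0.060). With 1 library left out the share of Cox4i2 ranged from -0.025 to 0.084 points and the share of Cox8b from -0.015 to 0.033. The length and GC correction was not run for shares of sets with Cox6a2 and Cox8b, which were under the filter. Over 19 alternatives, 625 of the differences of named subunits kept direction and side of the threshold, 72 lost and 20 gained the call. Unknown depth and 3 to 4 samples a group limit all values.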
